A study of Homo sapiens with 10 samples.

Results

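A set of 41 p53 target genes was followed in both RNA-seq experiments of the series. The set is named for arrest and repair, but 8 members were placed under arrest, 5 under repair and the others elsewhere. Its members were taken by gene name from a list whose rule names genes and uses no measured value, although the list was drawn up with earlier results of these data known. Of the 41 genes, 39 were listed among the 13029 genes of the *ZMAT3* experiment and 38 among the 17642 genes of the p53 knockdown experiment. *EDA2R*, a receptor of the TNF receptor family, and the long non-coding RNA *TP53TG1* were listed in neither table, and *SPATA18*, which acts in mitochondrial quality control, was listed in the *ZMAT3* table only.

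All 10 libraries came from HCT116, a colorectal cancer cell line with wild-type p53, and the labels state that no drug was given. The *ZMAT3* experiment compared 3 *ZMAT3*-WT libraries with 3 *ZMAT3*-KO libraries. ZMAT3 is an RNA-binding zinc finger protein whose gene is itself a p53 target. The knockout was 1 clone, so clone and genotype cannot be told apart, and the number of wild-type clones is not given in the paper. The knockout clone was made with guide RNAs on either side of the p53 response element in an intron of *ZMAT3*. This design was meant to lower *ZMAT3* expression rather than to abolish it. The second experiment compared 2 libraries from cells transfected for 72 hr with a control siRNA (siCTRL) with 2 from cells transfected with a pool of p53 siRNAs (sip53).

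p53 is a transcription factor that is kept scarce in unstressed cells by the ubiquitin ligase MDM2 and accumulates after DNA damage. It binds a response element made of a pair of short palindromic elements and raises transcription of nearby genes. Its best known targets hold the cell cycle, mainly through the CDK inhibitor p21, while others repair DNA, limit oxidative stress, adjust metabolism or tune the choice between survival and death.

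The *ZMAT3* labels were checked first. *ZMAT3* was lower by 2.89 on the log2 CPM (counts scaled to library size) scale in *ZMAT3*-KO than in *ZMAT3*-WT cells (limma adjusted p = 3.76e-12). Libraries of 1 group correlated with Pearson's r of 0.995 to 0.996 in the *ZMAT3* experiment and 0.958 to 0.964 in the knockdown experiment. Of 8 epithelial and colonic markers, 6 were tested in each experiment. The keratins *KRT8*, *KRT18* and *KRT19* were 0.82 to 1.75 lower on the log2 scale in *ZMAT3*-KO cells. *EPCAM*, *CDH1* and *CDX2*, the other 3, were not called there at an adjusted p of 0.05. With sip53 *EPCAM* was 0.60 higher, called at an unadjusted p of 0.05 only (limma adjusted p = 0.247), and the other 5 markers were not called. Of 10 markers of blood, stromal, endothelial, glial and liver cells, *COL1A1* alone was listed in the *ZMAT3* table or reached 0.5 FPKM on average in the knockdown table. The part of these markers in the results was not tested.

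With sip53 most of the target genes were lower. Of the 38 members tested, 34 had a negative difference, and the median log2(FPKM + 0.1) difference (FPKM are fragment counts scaled to gene length and library size) was -0.86, against -0.04 over all 14274 genes tested. At an unadjusted limma p of 0.05, the threshold the study used for this experiment, 23 members were lower, where 9.28% of all genes tested were called lower, and 1 member was higher, where 5.86% of all genes were. The other 14 members passed in neither direction. Below, a sip53 call is at this unadjusted threshold, and the p printed beside a gene is adjusted over all genes. Both sip53 libraries lay below both siCTRL libraries in 30 members, an order that 26.3% of all genes showed. At an adjusted p of 0.05 over all genes, limma called 3 members lower, *CDKN1A*, *TP53INP1* and *BTG2*, where 0.238% of all genes were called, and 0 higher, where 0.035% were. The adjusted count was 0 without siCTRL library 1, 1 without siCTRL library 2, and 2 without either sip53 library.

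**Figure D1:**
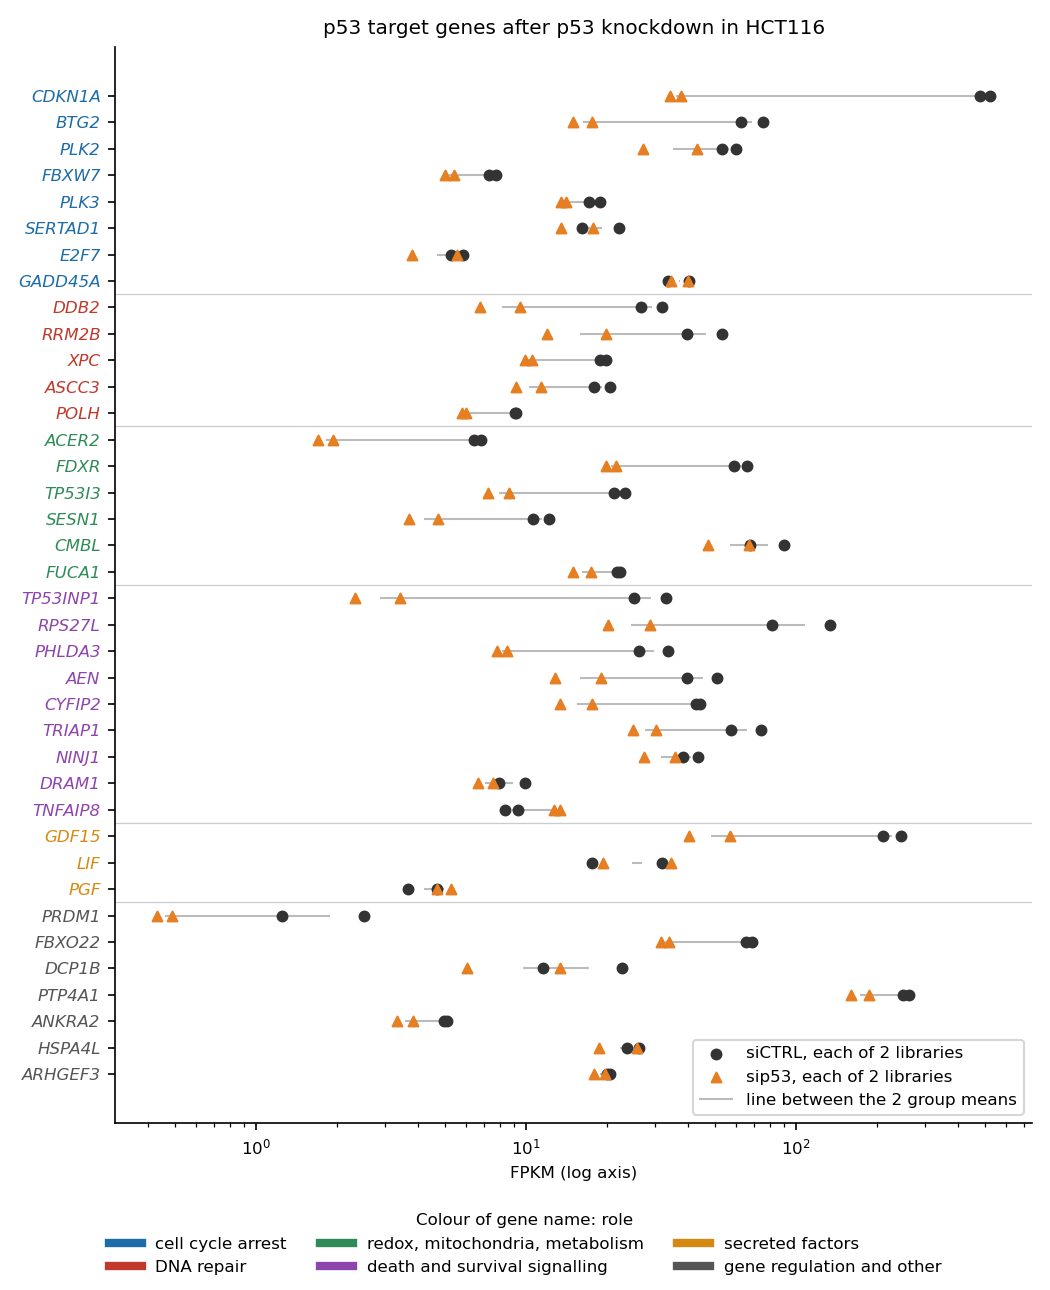
FPKM on a log axis of 38 p53 target genes in each of 2 siCTRL libraries (circles) and 2 sip53 libraries (triangles), grouped by role and ordered by the log2 difference, with a line between the group means. In 30 genes both triangles lie left of both circles, with *CDKN1A* and *TP53INP1* the furthest apart and *GADD45A* and *LIF* intermixed.

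In *ZMAT3*-KO cells the differences were smaller and the replicates tighter. Of the 39 members tested, 28 had a negative and 11 a positive difference, and the median log2 CPM difference was -0.24, against -0.01 over all 13029 genes. At a limma adjusted p of 0.05, 25 members were lower and 6 higher, where 30.1% of all genes were called lower and 28.7% higher, and 8 members passed in neither direction. With a 1.5-fold change also required, 4 members were lower, where 4.37% of all genes were, and 2 were higher, where 4.6% were. Those lower were *PLK2*, *LIF*, *PGF* and *PLK3*, and those higher were *PTP4A1* and *PRDM1*. *GDF15*, at -0.58, lay just outside the 1.5-fold limit, and *PLK3*, at -0.73, and *PRDM1*, at 0.75, were the nearest inside it.

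**Figure D2:**
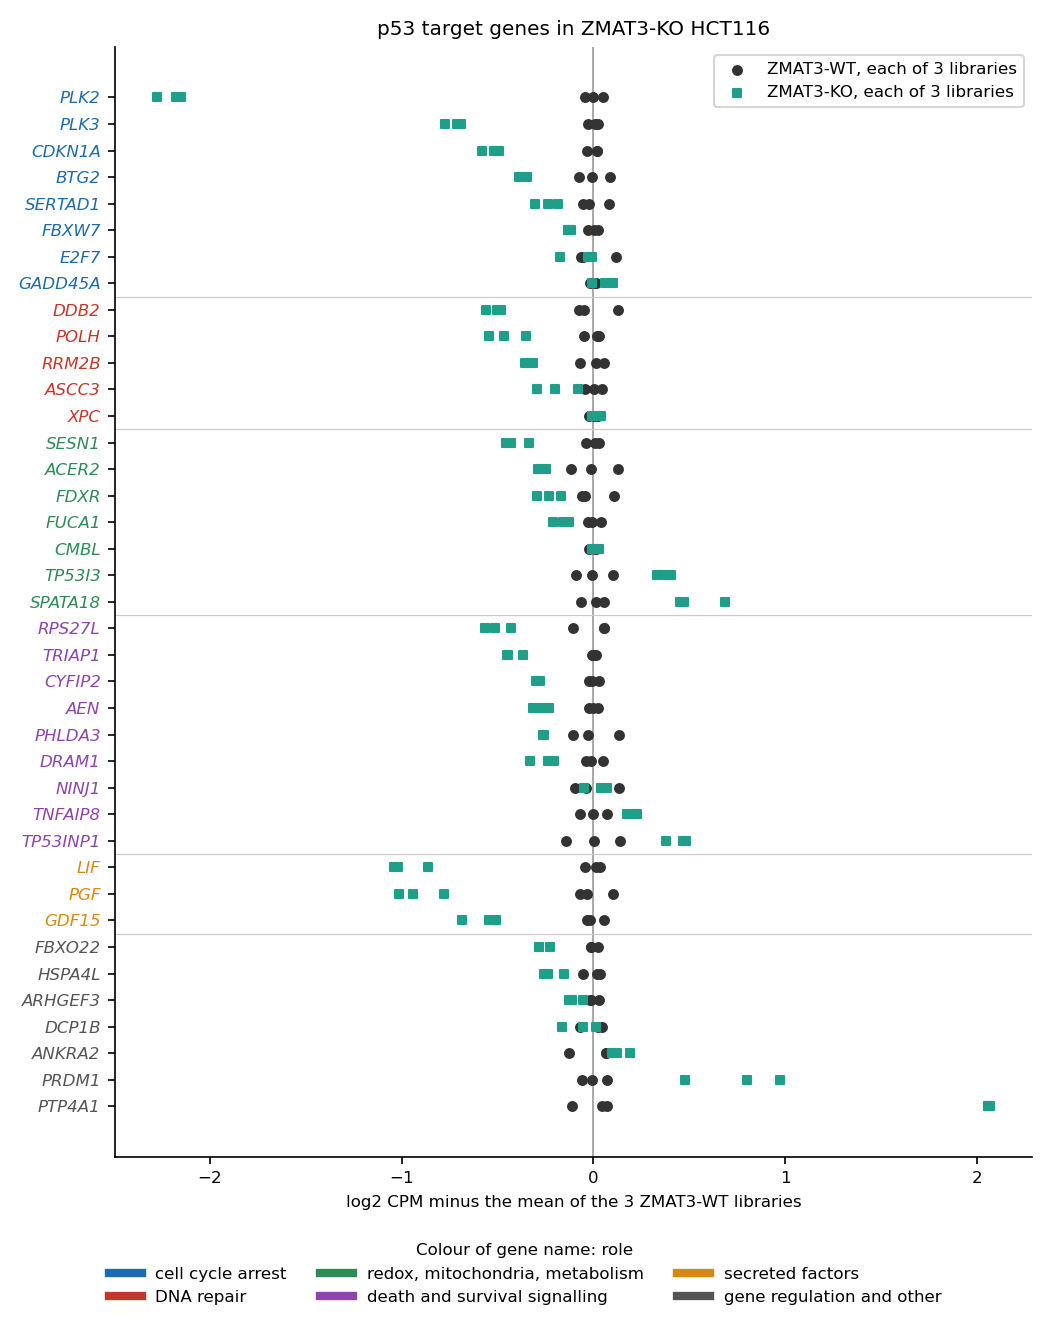
Log2 CPM of 39 p53 target genes in each of 3 *ZMAT3*-WT libraries (circles) and 3 *ZMAT3*-KO libraries (squares), shown relative to the *ZMAT3*-WT mean of the gene. Most knockout libraries lie left of 0, *PLK2* lies near -2.20, and *PTP4A1* near 2.06 on the opposite side.

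To show the DNA element by which p53 recognises such genes, RefSeq promoter windows (build GRCh38.p14, 250 bases before to 50 bases after each transcription start) were searched for the p53 consensus, a pair of 10-letter palindromic elements at most 1 base apart, with the central CNNG letters of each intact (A or T at N) and up to 3 mismatches in the other positions. The consensus is its own reverse complement, so the search covered both strands. A window was found for 33 of the 41 members, and 6 of these (18.2%) held a match, where 278 of all 27305 genes with a window (1.02%) did. The mismatch limit was set after matches had been seen, so this contrast is not independent of these genes. A single 10-letter element with no mismatch, which needs no such limit, was held by 7 of the 33 members (21.2%) and 2202 of all 27305 genes (8.06%). As the members were listed because they are p53 targets, neither contrast is a separate test of them. The 6 matches are shown because they are the sequences in which the letters of the element can be read. Capitals mark both 10-letter elements, and the strand is that of the gene.
*DDB2*, chr11:47214975-47215003, + strand, 0 mismatches: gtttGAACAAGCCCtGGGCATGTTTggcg
*AEN*, chr15:88621302-88621329, + strand, 2 mismatches: agccGGGCTTGCCCGGGCATGTGGgagc
*HSPA4L*, chr4:127783505-127783532, + strand, 2 mismatches: atggAAACATGTTTCCACATGTTCcgtt
*GDF15*, chr19:18386182-18386207, + strand, 3 mismatches: gcacAGCCATGCCCGGGCAAGAACtc
*RPS27L*, chr15:63157523-63157550, - strand, 3 mismatches: ggagGGCCTAGAGCAGACAAGCCCgccc
*SESN1*, chr6:109009014-109009041, - strand, 3 mismatches: gtctGGACAAGTCTCCACAAGTCAgaaa
The match in *DDB2* began at base 6 after the transcription start and had 1 base between its elements, while that in *SESN1* began 49 bases before the start. With sip53 the log2 difference was -1.85 for *DDB2*, -1.52 for *AEN*, -2.25 for *GDF15*, -2.11 for *RPS27L* and -1.43 for *SESN1*, all called lower at an unadjusted limma p, and -0.18 for *HSPA4L*, which was not called. A match describes letters only, and response elements of p53 targets also lie outside such windows.

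Among the 8 arrest genes, *CDKN1A*, *BTG2*, *PLK2* and *FBXW7*, 4 in all, were called lower with sip53. These and *PLK3* and *SERTAD1*, 6 in all, were lower in *ZMAT3*-KO cells. Over all genes, 9.28% were called lower with sip53 and 30.1% in *ZMAT3*-KO cells. *CDKN1A* (chr6:36676460-36687337, + strand, in hg38) encodes p21, which inhibits cyclin-dependent kinases. Its level was 525 and 481 FPKM with siCTRL and fell to 34.2 and 37.7 with sip53, a log2 difference of -3.80 ± 0.18 (SE) that left 7.16% of the control level (limma adjusted p = 0.00869). It was the most abundant member with siCTRL and ranked 5 among the members with sip53. In *ZMAT3*-WT cells *CDKN1A* was at 7.66, 7.66 and 7.61 log2 CPM, and in *ZMAT3*-KO cells at 7.12, 7.06 and 7.15, a difference of -0.53 ± 0.03 (limma adjusted p = 2.02e-08). The groups did not overlap in either experiment.

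*BTG2*, an antiproliferative factor that recruits the deadenylase complex, showed the same directions. It was at 75.3 and 62.5 FPKM with siCTRL and at 15.0 and 17.6 with sip53, a log2 difference of -2.07 ± 0.20 (limma adjusted p = 0.0425). Its log2 CPM was 4.77, 4.86 and 4.70 in *ZMAT3*-WT and 4.40, 4.44 and 4.42 in *ZMAT3*-KO cells, a difference of -0.36 (limma adjusted p = 2.99e-05).

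The stress-responsive polo-like kinases *PLK2* and *PLK3* had the largest differences of the 8 arrest genes in *ZMAT3*-KO cells. *PLK2* (chr5:58453982-58460139, - strand) was at 7.26, 7.21 and 7.17 log2 CPM in *ZMAT3*-WT and 5.07, 5.04 and 4.94 in *ZMAT3*-KO cells, which is 4.59-fold lower (limma adjusted p = 1.82e-13). In the knockdown experiment it was at 53.4 and 60.0 FPKM with siCTRL and at 43.1 and 27.2 with sip53, so that the sip53 libraries differed from each other by more than the nearer of them differed from the controls. That log2 difference of -0.72 ± 0.27 had a limma adjusted p of 0.30. It was called at an unadjusted p and lost that call without siCTRL library 1 (-0.81), siCTRL library 2 (-0.64) or sip53 library 2 (-0.39).

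*PLK3* was at 4.64, 4.63 and 4.59 log2 CPM in *ZMAT3*-WT and 3.90, 3.84 and 3.93 in *ZMAT3*-KO cells, which is 1.65-fold lower (limma adjusted p = 3.53e-08). With siCTRL it was at 17.2 and 18.8 FPKM and with sip53 at 14.1 and 13.5, a log2 difference of -0.38 ± 0.17 that was not called (limma adjusted p = 0.386). Both sip53 values lay below both control values.

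The other 4 arrest genes had smaller differences. *FBXW7*, the substrate receptor of a ubiquitin ligase for cyclin E, was 0.52 lower with sip53 (limma adjusted p = 0.286) and 0.13 lower in *ZMAT3*-KO cells (limma adjusted p = 0.0146). The sip53 call was lost when any of the 4 libraries was left out, at differences of -0.57 to -0.47, and the *ZMAT3*-KO call without *ZMAT3*-WT library 2 (-0.12, limma adjusted p = 0.0588). *SERTAD1*, a CDK4-binding regulator, was at 16.1 and 22.1 FPKM with siCTRL and 17.7 and 13.5 with sip53, overlapping groups. *SERTAD1* was at 5.13, 5.02 and 4.99 log2 CPM in *ZMAT3*-WT and 4.86, 4.74 and 4.81 in *ZMAT3*-KO cells, a difference of -0.24 (limma adjusted p = 0.000714).

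*GADD45A*, a stress protein that binds PCNA and p21, and *E2F7*, a repressor of E2F-driven genes, were called in neither experiment. *GADD45A* was at 40.2 and 33.5 FPKM with siCTRL and 34.4 and 39.98 with sip53, and at 5.25, 5.22 and 5.26 log2 CPM in *ZMAT3*-WT and 5.35, 5.23 and 5.30 in *ZMAT3*-KO cells, a difference of 0.05 ± 0.04. *E2F7* was at 5.83 and 5.29 FPKM with siCTRL and 5.55 and 3.79 with sip53, and at 4.22, 4.23 and 4.40 log2 CPM in *ZMAT3*-WT and 4.26, 4.28 and 4.11 in *ZMAT3*-KO cells, a difference of -0.07 ± 0.06. In each of these genes the groups overlapped in both experiments.

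All 5 repair genes were lower with sip53 at an unadjusted p, where 9.28% of all genes were. In *ZMAT3*-KO cells 4 of them were lower at an adjusted p, where 30.1% of all genes were. *DDB2*, which recognises UV damage for nucleotide excision repair, was at 32.0 and 26.7 FPKM with siCTRL and at 6.76 and 9.55 with sip53, a log2 difference of -1.85 ± 0.24 (limma adjusted p = 0.0785). In *ZMAT3*-WT cells it was at 5.52, 5.35 and 5.32 log2 CPM and in *ZMAT3*-KO cells at 4.89, 4.83 and 4.91, a difference of -0.51 (limma adjusted p = 3.24e-06). Neither pair of groups overlapped.

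*RRM2B*, the p53-induced small subunit of ribonucleotide reductase that supplies deoxynucleotides, was at 39.5 and 53.1 FPKM with siCTRL and at 19.8 and 12.0 with sip53, a log2 difference of -1.56 ± 0.30 (limma adjusted p = 0.133). Its log2 CPM was 6.87, 6.99 and 6.95 in *ZMAT3*-WT and 6.59, 6.62 and 6.58 in *ZMAT3*-KO cells, a difference of -0.34 (limma adjusted p = 4.18e-06). The damage sensor *XPC* separated the experiments, as it was at 19.8 and 18.8 FPKM with siCTRL and 10.6 and 9.89 with sip53, while its difference in *ZMAT3*-KO cells was 0.01 ± 0.03 (limma adjusted p = 0.736).

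The translesion polymerase gene *POLH* and the helicase gene *ASCC3*, which acts in alkylation repair, were lower in both experiments. *POLH* was 0.62 lower with sip53 (limma adjusted p = 0.212) and 0.45 lower in *ZMAT3*-KO cells (limma adjusted p = 1.06e-05). The sip53 call for *POLH* was lost without siCTRL library 1 (-0.63), siCTRL library 2 (-0.61) or sip53 library 2 (-0.60). *ASCC3* was 0.90 lower with sip53 (limma adjusted p = 0.165) and 0.19 lower in *ZMAT3*-KO cells (limma adjusted p = 0.00314).

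Of the 7 genes for redox control, mitochondria and metabolism, 6 were tested with sip53. *ACER2*, *FDXR*, *TP53I3* and *SESN1*, 4 in all, were called lower, where 9.28% of all genes were. *ACER2*, a ceramidase of the Golgi, was at 6.83 and 6.44 FPKM with siCTRL and at 1.70 and 1.93 with sip53, a log2 difference of -1.82 ± 0.21 (limma adjusted p = 0.0617). In the *ZMAT3* experiment it was at 1.04, 1.28 and 1.14 log2 CPM in wild-type and 0.87, 0.89 and 0.91 in knockout cells, and this difference of -0.27 was not called (limma adjusted p = 0.0733).

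*FDXR*, the mitochondrial ferredoxin reductase, was at 59.2 and 66.0 FPKM with siCTRL and at 19.7 and 21.6 with sip53, a log2 difference of -1.59 ± 0.18 (limma adjusted p = 0.0573). *FDXR* was at 6.06, 5.91 and 5.89 log2 CPM in *ZMAT3*-WT and at 5.78, 5.66 and 5.72 in *ZMAT3*-KO cells, a difference of -0.23 (limma adjusted p = 0.00103). *SESN1*, a sestrin that limits oxidative stress and mTORC1 activity, was 1.43 lower with sip53 (limma adjusted p = 0.0985) and 0.41 lower in *ZMAT3*-KO cells (limma adjusted p = 2.85e-05).

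*TP53I3*, which encodes a quinone oxidoreductase, was called in opposite directions. It was at 21.2 and 23.3 FPKM with siCTRL and at 8.66 and 7.24 with sip53, a log2 difference of -1.48 ± 0.19 (limma adjusted p = 0.0785). In *ZMAT3*-WT cells it was at 2.79, 2.59 and 2.68 log2 CPM and in *ZMAT3*-KO cells at 3.05, 3.02 and 3.09, a difference of 0.37 (limma adjusted p = 0.00067). *SPATA18*, at -0.16, -0.24 and -0.12 log2 CPM in *ZMAT3*-WT and 0.51, 0.30 and 0.28 in *ZMAT3*-KO cells, was near the bottom of the *ZMAT3* table, and its difference of 0.53 (limma adjusted p = 0.0158) lost the call without *ZMAT3*-KO library 1 (0.46, limma adjusted p = 0.0619).

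*FUCA1*, a lysosomal fucosidase, was at 21.8 and 22.2 FPKM with siCTRL and 17.5 and 14.9 with sip53 (limma adjusted p = 0.337), and neither sip53 value reached a control value. *FUCA1* was at 4.57, 4.64 and 4.59 log2 CPM in *ZMAT3*-WT and 4.47, 4.39 and 4.44 in *ZMAT3*-KO cells, a difference of -0.17 (limma adjusted p = 0.00517). *CMBL*, a cysteine hydrolase, was at 67.5 and 90.7 FPKM with siCTRL and 67.0 and 47.4 with sip53 (limma adjusted p = 0.461), and at 6.75, 6.72 and 6.75 log2 CPM in *ZMAT3*-WT and 6.77, 6.73 and 6.75 in *ZMAT3*-KO cells, a difference of 0.01 ± 0.03. For *CMBL* the nearest libraries of the knockdown groups were almost equal.

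The 10 genes of death and survival signalling include regulators of both outcomes, and 9 were tested in each experiment. Of these, 6 were lower and 1 higher with sip53, where 9.28% and 5.86% of all genes were. In *ZMAT3*-KO cells 6 were lower and 2 higher, where 30.1% and 28.7% of all genes were. *TP53INP1*, a p53 cofactor with a role in autophagy, was at 25.1 and 32.9 FPKM with siCTRL and at 3.42 and 2.32 with sip53, a log2 difference of -3.30 ± 0.27 that left 10.1% of the control level (limma adjusted p = 0.0387). In the *ZMAT3* experiment it was at 3.26, 3.54 and 3.41 log2 CPM in wild-type and 3.78, 3.87 and 3.88 in knockout cells, a difference of 0.44 in the opposite direction (limma adjusted p = 0.000152).

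*RPS27L*, a relative of ribosomal protein S27, was at 81.6 and 134 FPKM with siCTRL and at 28.7 and 20.1 with sip53, a log2 difference of -2.11 ± 0.32 (limma adjusted p = 0.0985). It was at 5.73, 5.89 and 5.89 log2 CPM in *ZMAT3*-WT and 5.32, 5.27 and 5.40 in *ZMAT3*-KO cells, a difference of -0.50 (limma adjusted p = 2.6e-06). Reads of such a gene can be shared with copies of near-identical sequence, so its level may be uncertain, which was not examined here.

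The AKT inhibitor *PHLDA3*, the apoptosis-enhancing nuclease *AEN*, the actin regulator *CYFIP2* and the apoptosis inhibitor *TRIAP1* were lower in both experiments. With sip53 their log2 differences were -1.85, -1.52, -1.49 and -1.24, all called at an unadjusted p, with limma adjusted p between 0.0564 and 0.121. In *ZMAT3*-KO cells they were -0.26, -0.27, -0.29 and -0.42, with limma adjusted p between 3.71e-07 and 0.000965.

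*TNFAIP8*, an inhibitor of apoptosis, was the member that was higher in both experiments. It was at 9.34 and 8.40 FPKM with siCTRL and at 13.3 and 12.7 with sip53, a log2 difference of 0.55 ± 0.18 (limma adjusted p = 0.251). It was at 3.87, 3.79 and 3.72 log2 CPM in *ZMAT3*-WT and 4.01, 3.97 and 4.02 in *ZMAT3*-KO cells, a difference of 0.21 (limma adjusted p = 0.00454). The sip53 call was lost when any of the 4 libraries was left out, at differences of 0.47 to 0.63.

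*DRAM1*, a lysosomal membrane protein of autophagy, was at 7.94 and 9.94 FPKM with siCTRL and 7.55 and 6.62 with sip53 (limma adjusted p = 0.52), and at 4.91, 4.99 and 4.94 log2 CPM in *ZMAT3*-WT and 4.71, 4.62 and 4.74 in *ZMAT3*-KO cells, a difference of -0.26 (limma adjusted p = 0.000298). *NINJ1*, a membrane protein that acts in plasma membrane rupture, was at 43.5 and 38.3 FPKM with siCTRL and 27.4 and 35.8 with sip53 (limma adjusted p = 0.463), and at 4.87, 4.69 and 4.63 log2 CPM in *ZMAT3*-WT and 4.77, 4.68 and 4.80 in *ZMAT3*-KO cells, a difference of 0.02 ± 0.06. Neither was called with sip53, though the sip53 values of both genes lay below their siCTRL values.

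The 3 secreted factors were all lower in *ZMAT3*-KO cells, where 30.1% of all genes were, and 1 of them was lower with sip53, where 9.28% were. *GDF15*, a stress cytokine of the TGF-beta family, was at 244 and 211 FPKM with siCTRL and at 40.03 and 56.9 with sip53, a log2 difference of -2.25 ± 0.24 (limma adjusted p = 0.0531). Its log2 CPM was 6.77, 6.70 and 6.68 in *ZMAT3*-WT and 6.17, 6.03 and 6.21 in *ZMAT3*-KO cells, a difference of -0.58 (limma adjusted p = 2.5e-07).

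*LIF*, a cytokine of the interleukin-6 family, was at 3.46, 3.44 and 3.38 log2 CPM in *ZMAT3*-WT and 2.39, 2.57 and 2.41 in *ZMAT3*-KO cells, which is 1.96-fold lower (limma adjusted p = 1.26e-07). With siCTRL it was at 32.0 and 17.6 FPKM and with sip53 at 19.2 and 34.6, so each group held 1 high and 1 low library and the difference was 0.12 ± 0.40. *PGF*, a growth factor of the VEGF family, was at 3.19, 3.15 and 3.32 log2 CPM in *ZMAT3*-WT and 2.44, 2.28 and 2.21 in *ZMAT3*-KO cells, which is 1.88-fold lower (limma adjusted p = 9.75e-07).

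*PGF* was at 3.67 and 4.70 FPKM with siCTRL and 5.29 and 4.68 with sip53, overlapping groups with a log2 difference of 0.25 ± 0.22. *LIF* and *PGF* were thus called lower in the *ZMAT3* experiment and had positive differences that did not pass with sip53.

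The remaining 8 genes act in gene regulation and other processes, and 7 were tested in each experiment. *FBXO22*, a substrate receptor of a ubiquitin ligase, was at 68.6 and 65.2 FPKM with siCTRL and at 34.0 and 31.7 with sip53, a log2 difference of -1.03 ± 0.17 (limma adjusted p = 0.111). It was at 5.98, 6.01 and 5.98 log2 CPM in *ZMAT3*-WT and 5.70, 5.70 and 5.76 in *ZMAT3*-KO cells, a difference of -0.27 (limma adjusted p = 2.12e-05).

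*PRDM1*, which encodes the repressor Blimp-1, was the least abundant member with siCTRL, at 2.52 and 1.25 FPKM, and was at 0.49 and 0.43 with sip53, a log2 difference of -1.75 ± 0.44 (limma adjusted p = 0.189). Without siCTRL library 1 this was -1.27 and was no longer called. It was at 0.51, 0.59 and 0.46 log2 CPM in *ZMAT3*-WT and 1.00, 1.49 and 1.32 in *ZMAT3*-KO cells, which is 1.68-fold higher (limma adjusted p = 0.000784).

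*PTP4A1* (chr6:63521746-63583588, + strand), a protein tyrosine phosphatase, was the member that rose most in *ZMAT3*-KO cells. It was at 6.78, 6.94 and 6.96 log2 CPM in *ZMAT3*-WT and 8.95, 8.96 and 8.95 in *ZMAT3*-KO cells, which is 4.17-fold higher (limma adjusted p = 5.04e-13). In GENCODE v44 another protein-coding gene, ENSG00000285976, shares exons with *PTP4A1* on the same strand, so that reads over these exons could be split between the genes. A transcript with a clone name in the same table, *AL135905.2*, was 2.16 higher, and *PHF3* was 0.43 higher (limma adjusted p = 3.91e-14 and 1.29e-06). In *ZMAT3*-KO cells *AL135905.2* had a mean of 9.98 log2 CPM, against 8.95 for *PTP4A1*. Another such transcript, *AL135905.1*, was 2.72 higher, from a low *ZMAT3*-WT mean of -1.24. No knockdown values were found under either clone name, and how reads were split between these genes was not tested.

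With sip53 *PTP4A1* moved the other way. It was at 262 and 248.9 FPKM with siCTRL and at 159.8 and 187 with sip53, a log2 difference of -0.56 ± 0.19 (limma adjusted p = 0.273). This call was lost when any of the 4 libraries was left out, at differences of -0.68 to -0.45. It was the member of rank 2 in FPKM with siCTRL and of rank 1 with sip53.

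*ANKRA2*, an ankyrin repeat protein, was at 4.99 and 5.11 FPKM with siCTRL and 3.81 and 3.34 with sip53 (limma adjusted p = 0.341), and at 2.30, 2.30 and 2.11 log2 CPM in *ZMAT3*-WT and 2.33, 2.36 and 2.42 in *ZMAT3*-KO cells, a difference of 0.14 ± 0.08. *DCP1B*, a cofactor of mRNA decapping, was at 22.6 and 11.5 FPKM with siCTRL and 6.07 and 13.4 with sip53, a wide spread in both groups (limma adjusted p = 0.479). *DCP1B* was called lower at an unadjusted p without siCTRL library 2 (-1.32) and without sip53 library 2 (-1.40). It was at 4.07, 3.97 and 4.09 log2 CPM in *ZMAT3*-WT and 4.06, 3.99 and 3.88 in *ZMAT3*-KO cells, overlapping groups with a difference of -0.07 ± 0.06.

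*HSPA4L*, a chaperone of the HSP110 family, was at 23.7 and 26.3 FPKM with siCTRL and 25.9 and 18.7 with sip53 (limma adjusted p = 0.764), and at 6.38, 6.47 and 6.46 log2 CPM in *ZMAT3*-WT and 6.20, 6.29 and 6.18 in *ZMAT3*-KO cells, a difference of -0.22 (limma adjusted p = 0.000302). *ARHGEF3*, an exchange factor for small GTPases, was at 20.5 and 20.0 FPKM with siCTRL and 17.95 and 19.6 with sip53 (limma adjusted p = 0.821). It was at 4.87, 4.91 and 4.87 log2 CPM in *ZMAT3*-WT and 4.83, 4.76 and 4.77 in *ZMAT3*-KO cells, and that difference of -0.10 (limma adjusted p = 0.0457) lost the call without *ZMAT3*-WT library 2 or 3 or *ZMAT3*-KO library 2 or 3, at differences of -0.11 to -0.09.

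Set side by side, a majority of the members had the same sign in both experiments, but sizes differed. With 34 of 38 members negative with sip53 and 28 of 39 in *ZMAT3*-KO cells, many shared signs would arise with no relation between the experiments. Of the 38 members tested in both, 26 had a negative difference in both, 10 had opposite signs, and 31 had the larger absolute log2 difference with sip53. Shares of all genes are not given for these counts, so the counts do not show a trait of the members. Libraries of 1 group also agreed less closely in the knockdown experiment (Pearson's r of 0.958 to 0.964) than in the *ZMAT3* experiment (0.995 to 0.996). Across these 38 genes the differences had a Pearson's r of -0.01 and a Spearman's correlation of 0.19, given as a description, since genes are not independent replicates and the scales differ. The experiments shared no libraries.

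By calls, 17 of these members were lower in both experiments, among them *CDKN1A*, *BTG2*, *DDB2*, *RRM2B*, *SESN1* and *GDF15*, where 2.9% of the 11370 genes tested in both by name were. *TP53I3*, *TP53INP1*, *PRDM1* and *PTP4A1*, 4 members in all, were called higher in *ZMAT3*-KO cells but lower with sip53, where 3.53% of those genes were. *TNFAIP8* was the 1 member called higher in both, where 1.7% of those genes were. The 8 members lower in *ZMAT3*-KO cells and not called with sip53 were *PLK3*, *SERTAD1*, *FUCA1*, *DRAM1*, *PGF*, *LIF*, *HSPA4L* and *ARHGEF3*, a combination seen in 26.2% of those genes. *XPC* and *ACER2* were lower with sip53 and not called in *ZMAT3*-KO cells, as were 3.31% of those genes. The other 6 members were called in neither experiment, and the share of those genes called in neither is not given. The difference between the experiments was not tested, as they were normalized separately.

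**Figure D3:**
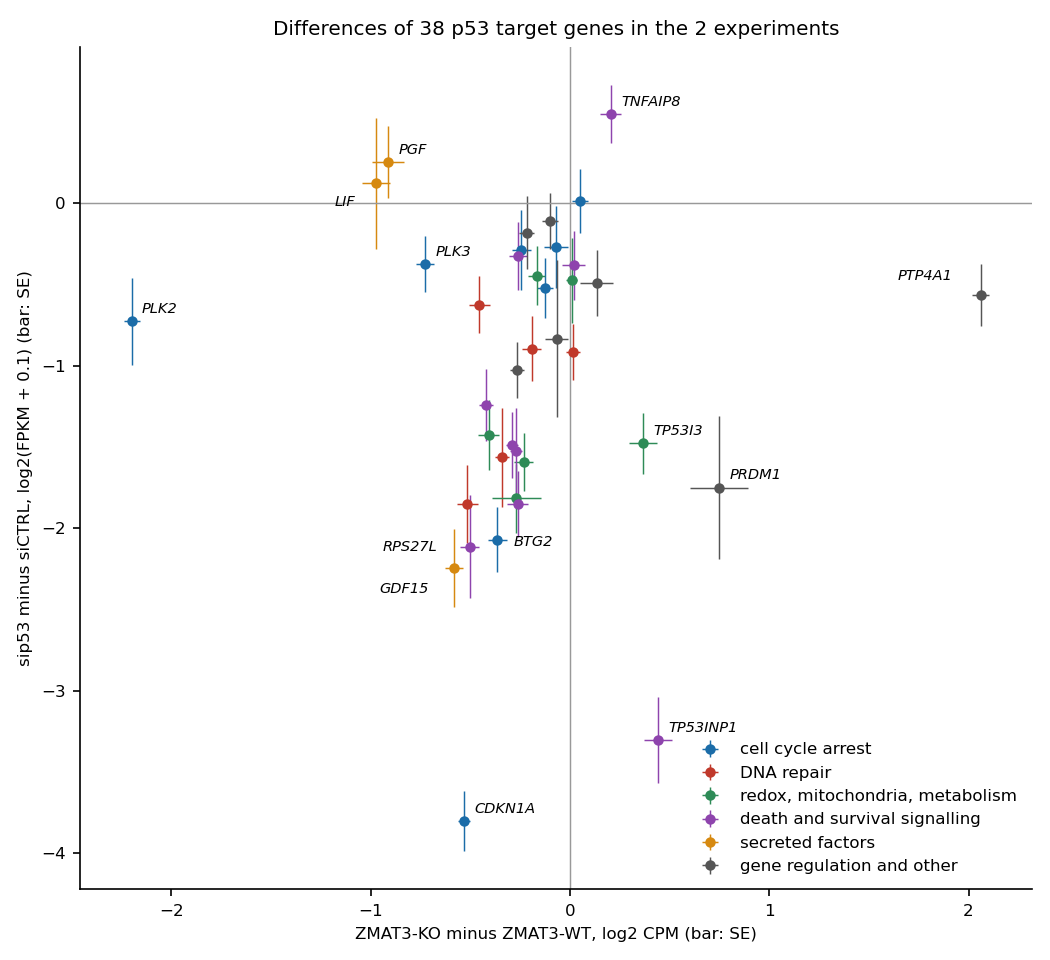
Log2 differences of 38 p53 target genes in *ZMAT3*-KO against *ZMAT3*-WT cells (horizontal, log2 CPM) and with sip53 against siCTRL (vertical, log2(FPKM + 0.1)), with bars for the SE. Of the 38 points, 26 lie in the lower left field, *PTP4A1* and *PRDM1* lie far right, and *PLK2* far left.

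In FPKM, which is per length, the members ranged from 1.89 (*PRDM1*) to 503 (*CDKN1A*) with siCTRL, with a median of 24.9, against 11.0 over all genes tested, and the median with sip53 was 15.6. The members that kept the least of their control level after knockdown were *CDKN1A* (7.16%), *TP53INP1* (10.1%), *GDF15* (21.1%), *RPS27L* (23.1%) and *BTG2* (23.8%). The authors' mean normalized counts of the members ranged from 124 to 16316.

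Other p53 pathway genes were set beside these members. Of the 13 p53 targets for cell death tested, 6 were lower and 0 higher with sip53 at an unadjusted limma p, where 9.28% of all genes were lower and 5.86% higher, with a median log2 difference of -0.58. *TNFRSF10C*, a decoy receptor for TRAIL, and *BAX*, a pore former of mitochondrial apoptosis, had the largest differences, of -2.07 and -1.55. In *ZMAT3*-KO cells 6 of 13 were lower and 3 higher at a limma adjusted p, where 30.1% of all genes were lower and 28.7% higher, with a median of -0.12, and *TNFRSF10C* (-1.49) and *TNFRSF10D* (-0.61) differed most.

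Of the other p53 targets, 18 were tested with sip53, where 11 were lower and 1 higher, against the same 9.28% and 5.86% of all genes, with a median of -0.89. The antiviral factor *TRIM22* (-4.38) and *SUSD6* (-1.38) differed most. *TRIM22* was at 2.01 and 2.56 FPKM with siCTRL and 0 and 0.03 with sip53, so the size of its difference depends on the added 0.1 FPKM. In *ZMAT3*-KO cells 8 of 17 were lower and 4 higher, against 30.1% and 28.7% of all genes, with a median of -0.03, and *GREB1* (0.89) and *ALDH4A1* (-0.88), a mitochondrial enzyme of proline breakdown, differed most.

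Proliferation genes that p21 is known to repress moved the other way with sip53. Of these 28 genes, 15 were higher and 1 lower with sip53 at an unadjusted limma p, against 5.86% and 9.28% of all genes, with a median log2 difference of 0.62, and *CENPA* (1.14), a centromeric histone, and the phosphatase *CDC25C* (1.12) differed most. In *ZMAT3*-KO cells 2 were higher and 15 lower, against 28.7% and 30.1% of all genes, with a median of -0.12, although *CDKN1A* was also lower, and the checkpoint kinase *CHEK1* (-0.93) and the replication helicase subunit *MCM5* (-0.37) differed most.

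**Figure D4:**
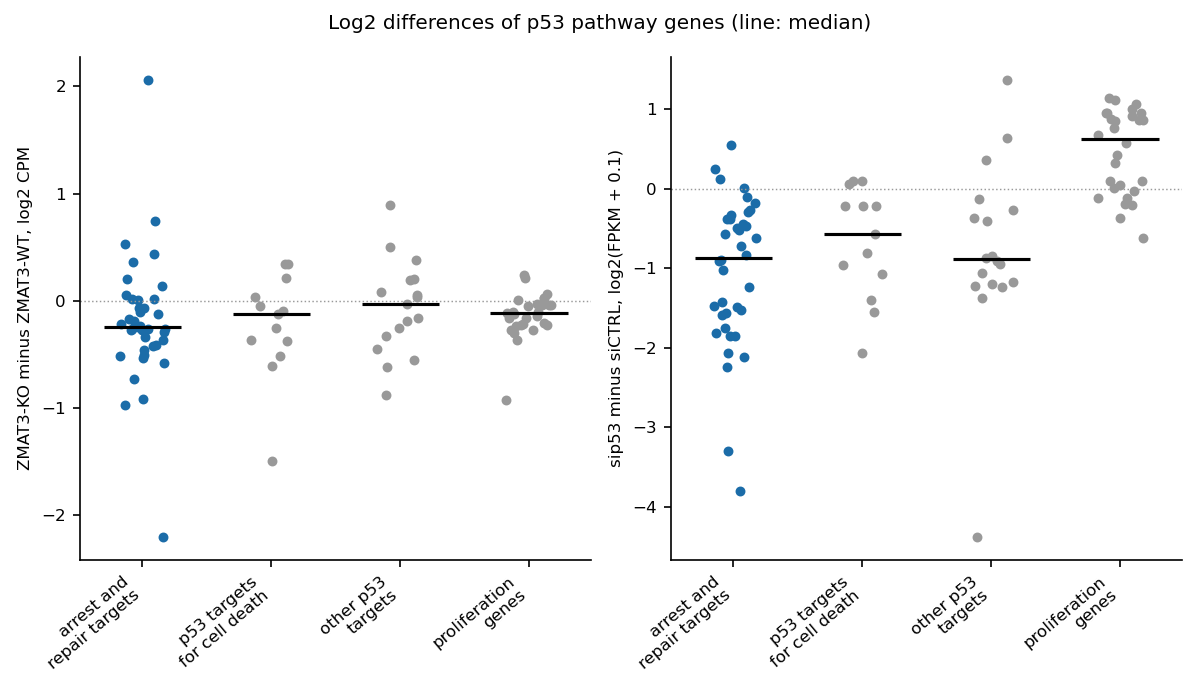
Log2 differences of single genes (points) and their median (line) in 4 groups of p53 pathway genes, for *ZMAT3*-KO against *ZMAT3*-WT cells on the left and sip53 against siCTRL on the right. The points marked arrest and repair targets are the members of all roles, with a median of -0.24 on the left and -0.86 on the right. The proliferation genes are the group with a median above 0 on the right, at 0.62.

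The siRNA libraries' strand setting is not given in the sources used here, and 17 members share exon positions with a gene on the opposite strand in GENCODE v44, among them *CDKN1A*, *XPC*, *POLH*, *TP53INP1* and *PTP4A1*. Reads of such partners could not be told apart if these libraries were unstranded. In bulk RNA a lower level in every cell and fewer cells with the transcript cannot be told apart.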

How the data were processed

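RNA-seq of poly(A) RNA was used from 10 HCT116 libraries, grouped by their labels. For the *ZMAT3* experiment the authors used Cutadapt for trimming, STAR for alignment (hg38) and RSEM for quantification, and deposited log2 CPM values. All 6 libraries share 1 distribution of values, as quantile normalization gives, so their depth is unknown. For the siRNA experiment the authors deposited FPKM values and a mean normalized count per gene, which is a signal value pooled over libraries. Its aligner and strand setting are not given in the sources used here. The submitters' processing notes name CASAVA 1.8.2, TopHat2 2.0.8, FastQC 0.11.2, hg19 and hg38 with no role. Columns of the authors' own fold changes and p-values were not used.

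Each table was fitted alone over all its genes with limma 3.58.1 in R 4.3.3 (moderated test with variance trend, two-sided, Benjamini-Hochberg adjustment). Log2 CPM was used unfiltered, and FPKM as log2(FPKM + 0.1) where the gene averaged 0.5 FPKM or more, so a fold change understates that of low genes. Fits were checked on simulated data. The labels call the replicates biological, and p-values measure the spread between these libraries. With 3 against 3 an exact permutation test cannot fall below p = 0.10, so the spread was shared across genes. Alternatives were another pseudocount or filter, median centring, no variance trend, a replicate block and each library left out. Per-library values are given for *CDKN1A*, members past an adjusted p of 0.05 and 1.5-fold in *ZMAT3*-KO or past an adjusted p of 0.05 with sip53, those not called with sip53, those called in opposite directions and the 2 of each role with the largest sip53 difference. Those of *XPC*, *TNFAIP8* and *SPATA18* were added after their values were seen. Members, roles and lists were chosen with earlier results of these data known. Promoter windows were RefSeq's, and gene positions came from GENCODE v44. A check of the sip53 labels is not reported here.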

Additional observations from a re-analysis of the deposited data

How the results depend on the processing

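In the *ZMAT3* experiment 28 of the 31 called members remained called with each library left out in turn, and in the siRNA experiment 18 of 24 did. Of members lower with sip53 at an adjusted limma p of 0.05 (3), there were 6 with a mean of at least 5 FPKM, 1 with no filter, 1 with no variance trend, 5 with a replicate block and 0 to 2 with 1 library left out. The member higher at an unadjusted p was called in 0 cases with a replicate block or any library left out. The median sip53 difference was -1.003 to -0.81 and the median *ZMAT3* difference -0.26 to -0.21 with 1 library left out, and the latter was -0.23 on log2(CPM + 1). On that scale 1 member was higher by 1.5-fold, not 2. Median centring changed the split over all genes with sip53 from 836 higher and 1325 lower to 1120 higher and 1048 lower.

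Replicate numbers did not pair the libraries, as deviations of equal numbers correlated at -0.09 to -0.02 in the *ZMAT3* experiment and -0.62 in the siRNA experiment, and the block gave 434 higher and 650 lower genes with sip53. With crossed numbers (correlation 0.62), added after the data were seen, 2410 genes were higher and 3128 lower. Of the members 31 were lower at an unadjusted p, where 3128 of all 14274 genes tested were, and 27 at an adjusted p. The main fit called 836 genes higher and 1325 lower, so the crossed fit raised calls over all genes. No share of all genes is given for the 27, so this count does not show a trait of the members. With 2 libraries per group the 0.62 is the -0.62 with its sign turned, so it is not separate evidence of pairing.

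Small differences changed sign with 1 library left out. These were *CMBL* (-0.0023 to 0.0175) and *NINJ1* (-0.0296 to 0.0871) in the *ZMAT3* experiment, and *GADD45A* (-0.116 to 0.147), *LIF* (-0.307 to 0.553) and *HSPA4L* (-0.413 to 0.0531) with sip53. The cause was not tested. Depth of the *ZMAT3* libraries is unknown, and 2 libraries per group limit the siRNA comparison.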
